A study of Homo sapiens with 3 samples.

Results

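The ATP-dependent chromatin remodelers of 22Rv1 cells were followed across 3 RNA-seq libraries. A list of 42 genes was taken by symbol, namely 27 subunits of the SWI/SNF (BAF) complexes, the 9 CHD proteins and 6 genes of the ISWI family, and each Ensembl gene identifier in the deposited tables was matched to these symbols. All 42 had a row among the 29000 rows of each table, which stand for 27024 counted genes once neighbouring rows with identical values in all 3 libraries are counted once. SMARCB1 and BCL7A each filled a pair of such identical rows. The study asks how an enhancer on chromosome 12 that carries a prostate cancer risk variant acts in castration-resistant prostate cancer cells. The 3 libraries come from 22Rv1 WT cells, an established human prostate cancer line derived from a xenograft that relapsed after castration, and form a single group labelled WT, grown in RPMI1640 with serum and with no treatment given. Libraries of cells with the enhancer deleted or the variant mutated were not analysed here, so no condition is compared below. The labels number the WT replicates 1 to 3 and say no more of their origin. The study's methods speak of control clones and its results of biological replicates, and SDs measure the spread between these samples. The p-values concern these 3 libraries only, and the chi-square ones set them against counting noise, with spread between libraries added where stated.

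Remodelers use the energy of ATP to slide, eject or exchange nucleosomes. A SWI/SNF complex holds a single ATPase, a core of shared subunits and further subunits that set it apart as canonical BAF, PBAF or non-canonical BAF. CHD3, CHD4 and CHD5 are the ATPases of the NuRD complex, which pairs remodeling with histone deacetylation, and the ISWI ATPases SMARCA5 and SMARCA1 space nucleosomes together with partners such as the BAZ proteins. When neural progenitors leave the cell cycle, several SWI/SNF positions change from a widely used subunit to a neuronal paralog: ACTL6A gives way to ACTL6B, PHF10 to DPF1 or DPF3, and SS18 to SS18L1. CHD5 and SMARCA1 are likewise known for their use in neurons, CHD5 in place of CHD4 and SMARCA1 beside SMARCA5.

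Reads counted on genes came to 38252744, 35675670 and 38629080 in replicates 1, 2 and 3. They were recovered from the deposited values, with repeated rows counted once. Values are the deposited normalized counts, that is, reads divided by a size factor for each library, and wherever levels of different genes are compared they are divided by the length of a canonical transcript and given as normalized counts per kb. Among markers of the labelled cells, 8 of 8 prostate luminal genes were expressed, with summed normalized counts of 72785.0 to 77224.5, against 0 of 4 leukocyte genes, with sums of 27.9 to 44.9, and 2 of 5 fibroblast genes, with sums of 429.8 to 488.1. Of 8 neuronal markers 4 were expressed (SNAP25, SYT1, MAP2 and TUBB3; sums of 6664.9 to 6783.5), while RBFOX3 had at most 7 reads and STMN2 at most 1. Of 8 neuroendocrine markers 4 were expressed (SYP, CHGA, CHGB and ENO2; sums of 10952.9 to 11249.2), and INSM1 and NEUROD1 had 0 reads in every library.

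Nearly the whole set was transcribed. With a gene called expressed at 1 CPM or more (reads scaled to library size) in all 3 libraries, 41 of the 42 members were expressed, against 63.8% of the protein-coding genes with a row. By family these were 26 of 27 SWI/SNF subunits, 9 of 9 CHD proteins and 6 of 6 ISWI genes. The exception was DPF3, with 14, 12 and 11 reads. Per kb, 29 members lay above the median expressed protein-coding gene (332.4) and 16 lay in the upper quartile (808.7 or more), and the median member stood at the 67.5th percentile of those genes. The list was made mostly of genes that most cells use, beside the neuronal paralogs, so these shares describe it and single nothing out. Remodeler transcripts were long, with a median of 5.71 kb against 3.44 kb for expressed protein-coding genes.

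**Figure D1:**
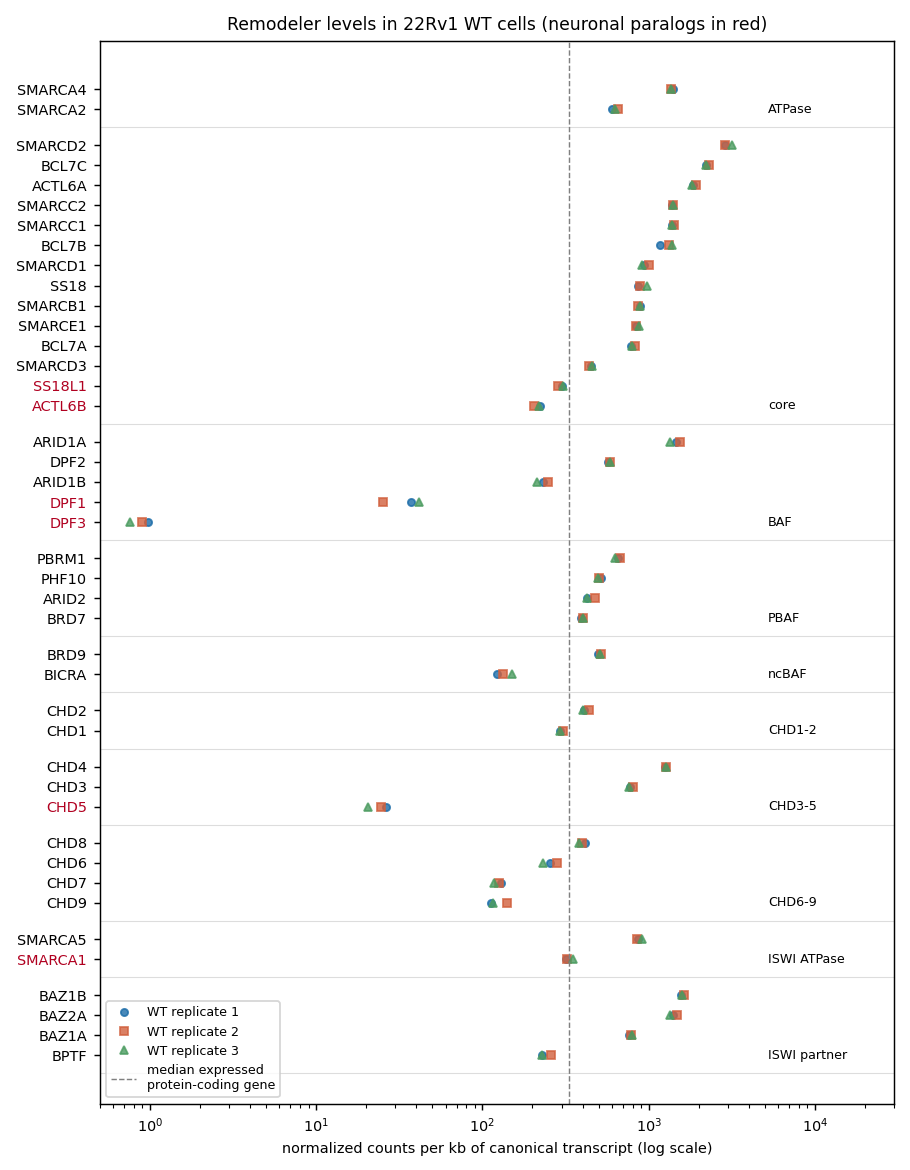
Level of each of the 42 remodelers in each WT library, in normalized counts per kb of canonical transcript on a log axis, grouped by family and role; each symbol is a library, red names are neuronal paralogs, and the dashed line is the median expressed protein-coding gene (332.4). SMARCD2 is highest at 2972 and DPF3 lowest at 0.876, and the 3 libraries nearly coincide for most members.

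The neuronal paralogs stood in the lower part of this order, with DPF1, CHD5 and DPF3 at its end. Their ranks among the 42 members by normalized counts per kb were 30 for SMARCA1, 31 for SS18L1, 36 for ACTL6B, 40 for DPF1, 41 for CHD5 and 42 for DPF3. Divided by coding length instead, a choice made after the data were seen, SS18L1 moved up to rank 19 and the other five lay at ranks 32 to 42. Each was below its non-neuronal counterpart in all 3 libraries on either scale. These are bulk samples, in which fewer cells that use a gene and less RNA per cell cannot be told apart.

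The actin-related subunit binds the ATPase and connects it to the rest of the complex. ACTL6B (ENSG00000077080, chr7:100240720-100254071 in GRCh37) had normalized counts of 338.1, 309.7 and 332.2 in replicates 1 to 3, and ACTL6A (chr3:179280674-179306195) had 3421.0, 3576.2 and 3396.3. The values of these genes lay far apart in every library. Per kb the levels were 214.3 ± 9.83 and 1869 ± 52.6 (SD, n = 3), so that ACTL6A exceeded ACTL6B 8.72-fold (log2 ratio -3.12 ± 0.11), or 10.5-fold per coding kb. ACTL6B was nonetheless not near 0: its level per kb was above those of BICRA, CHD7 and CHD9, and it made up 10.3% ± 0.667 of the ACTL6 total per kb.

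Of the PHD-finger subunits that read histone tails, DPF1 (ENSG00000011332, chr19:38701646-38720354) had 85.3, 58.4 and 96.0 normalized counts, from 108, 69 and 122 reads. PHF10 (chr6:170103998-170125662), the PBAF subunit of progenitors and most other cells, had 1111.6, 1083.2 and 1071.5. DPF1 was lowest in replicate 2 and the most variable member, with a coefficient of variation of 24.2%, yet its range did not approach that of PHF10. Of the PHF10 exons 485 bases overlap C6orf120 on the opposite strand, a gene of 1502 normalized counts. PHF10 exceeded DPF1 14.8-fold per kb (log2 ratio -3.89 ± 0.38) and 10.8-fold per coding kb. DPF3 (ENSG00000205683, chr14:73075742-73360809), known from neurons, heart and muscle, had 11.1, 10.2 and 8.7 normalized counts, and its ratio to PHF10 depended strongly on the length used: 576-fold per kb of its long canonical transcript and 83.0-fold per coding kb. DPF2, the widely used DPF protein of canonical BAF, had 582.3 ± 8.99 normalized counts per kb, near PHF10 at 502.4 ± 9.52. Per coding kb they were further apart, at 1843.7 for DPF2 and 728.8 for PHF10.

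SS18 and SS18L1 (also CREST) are small activating subunits that join the BAF core. SS18L1 (ENSG00000184402, chr20:60718825-60757570) had 1364.4, 1300.7 and 1382.4 normalized counts, and SS18 (chr18:23596217-23671181) had 2914.5, 3022.8 and 3329.4. Both were highest in replicate 3, and their ranges did not overlap. This was the closest of the SWI/SNF neuronal pairs: SS18 was 3.06-fold higher per kb (log2 ratio -1.61 ± 0.09) 2.17-fold higher per coding kb and 1.92-fold higher per kb of all exons joined.

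Outside SWI/SNF, CHD5 (ENSG00000116254, chr1:6161847-6240381) had 260.7, 242.0 and 200.8 normalized counts, against 8111.6, 8258.5 and 8260.8 for CHD4 (chr12:6679248-6723690), the main NuRD ATPase of proliferating cells. CHD5 was lowest in replicate 3 and CHD4 in replicate 1, and the ranges were far apart. CHD4 exceeded CHD5 53.4-fold per kb (log2 ratio -5.74 ± 0.21), 36.0-fold per coding kb and 28.0-fold per kb of all exons joined. SMARCA1 (SNF2L; ENSG00000102038, chrX:128580478-128657477) had 1276.7, 1286.3 and 1392.7 normalized counts, and SMARCA5 (SNF2H; chr4:144434855-144478639) had 6638.9, 6562.7 and 6982.3. Both were highest in replicate 3, and their log2 ratio per kb hardly moved between libraries (-1.41 ± 0.03), a 2.65-fold excess of SMARCA5 that became 5.19-fold per coding kb.

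As shares of their position, the neuronal subunits were all in the minority, and their order among themselves depended on the length used. SMARCA1 took 27.0%, 27.4% and 27.8% of the ISWI ATPase level per kb in replicates 1 to 3, and SS18L1 took 25.9%, 24.3% and 23.7% of SS18 plus SS18L1. ACTL6B took 10.7%, 9.53% and 10.6% of the ACTL6 level, and DPF1 with DPF3 took 6.90%, 4.99% and 7.91% of their sum with PHF10. That sum leaves out DPF2, at 582.3 normalized counts per kb, and with it the share of DPF1 with DPF3 would be smaller. CHD5 took 1.29%, 1.17% and 0.992% of CHD3, CHD4 and CHD5 together. Per transcript kb none of these ranges overlapped. With coding length SS18L1 (31.6%) was above SMARCA1 (16.2%), as it was with all exons joined (34.3% against 26.8%) and with no length scaling (30.4% against 16.4%). With coding length DPF1 with DPF3 (9.60%) was above ACTL6B (8.68%) in the mean but not in every library. The sum again left out DPF2 (1844 normalized counts per coding kb). CHD5 had the smallest share on every one of these scales. By reads rather than level per kb, the CHD5 share had exact 95% binomial intervals of 1.66% to 2.06%, 1.49% to 1.88% and 1.26% to 1.61%, which cover counting error only.

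**Figure D2:**
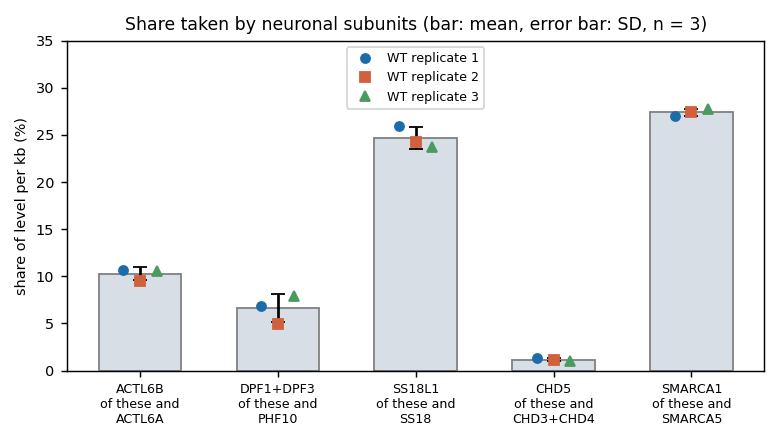
Share of the summed level per kb taken by the neuronal subunit at 5 positions (in percent); bars are the mean of the 3 WT libraries, error bars the SD, and symbols the single libraries. On this scale SMARCA1 (27.4%) and SS18L1 (24.7%) stand above ACTL6B (10.3%), DPF1 plus DPF3 (6.60%) and CHD5 (1.15%). Per coding kb SS18L1 exceeds SMARCA1, and DPF1 plus DPF3 exceed ACTL6B in the mean but not in every library. The DPF1 plus DPF3 share is of their sum with PHF10 and leaves out DPF2.

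With 3 libraries the exact two-sided sign-flip permutation test cannot give a p below 0.25. All 6 neuronal pairs had this smallest p = 0.25 in the exact test, or 0.266 after Benjamini-Hochberg adjustment over the 17 pairs compared, so each ratio is described by its sign in every library and its SD. In every library each of the 6 log2 ratios was larger in size than its SD. The neuronal and neuroendocrine markers given above were present in the same libraries, and their part in the levels of ACTL6B, DPF1, SS18L1, CHD5 and SMARCA1 was not tested.

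The stretch before the transcription start is shown for the neuronal pairs in which the RefSeq table used gave a single start for both partners, since these are the positions at which one paralog was well below the other. Windows are the 250 bases before the start in GRCh38.p14, a later build than that of the deposited tables, and are written 5′ to 3′ on the gene's strand with CG dinucleotides in capitals. DPF1 (chr19:38229696-38229945, minus strand) held 28 CG and PHF10 (chr6:169724501-169724750, minus strand) held 39. SMARCA1 (chrX:129523491-129523740, minus strand) held 16 CG and SMARCA5 (chr4:143513452-143513701, plus strand) held 20.
DPF1: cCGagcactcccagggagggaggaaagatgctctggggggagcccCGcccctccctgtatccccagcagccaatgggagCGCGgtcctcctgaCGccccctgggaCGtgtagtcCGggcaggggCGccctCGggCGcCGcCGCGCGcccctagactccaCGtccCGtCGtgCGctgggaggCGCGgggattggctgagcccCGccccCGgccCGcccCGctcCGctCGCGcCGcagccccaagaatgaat
PHF10: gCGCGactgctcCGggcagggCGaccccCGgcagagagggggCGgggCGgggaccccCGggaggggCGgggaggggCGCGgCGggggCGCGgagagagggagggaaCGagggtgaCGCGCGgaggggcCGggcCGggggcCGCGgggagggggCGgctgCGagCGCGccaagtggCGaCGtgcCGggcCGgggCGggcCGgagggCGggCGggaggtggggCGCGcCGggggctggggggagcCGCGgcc
SMARCA1: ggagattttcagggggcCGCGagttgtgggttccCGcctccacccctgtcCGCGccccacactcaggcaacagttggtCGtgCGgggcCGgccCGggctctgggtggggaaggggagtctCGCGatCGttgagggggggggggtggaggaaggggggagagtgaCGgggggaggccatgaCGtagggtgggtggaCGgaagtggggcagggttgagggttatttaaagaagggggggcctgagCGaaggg
SMARCA5: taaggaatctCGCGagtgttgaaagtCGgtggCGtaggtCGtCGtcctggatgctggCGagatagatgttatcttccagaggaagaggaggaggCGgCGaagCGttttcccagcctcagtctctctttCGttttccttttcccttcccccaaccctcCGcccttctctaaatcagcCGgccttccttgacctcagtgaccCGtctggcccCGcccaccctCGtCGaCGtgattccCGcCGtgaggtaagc
CG number and level did not go together in every pair. The lower partner of both pairs shown held fewer CG, as did CHD3 (9 against 21 for CHD4), whereas CHD1, lower than CHD2 per transcript kb, held 36 against 0, and the DPF1 window held more than that of the more highly expressed SMARCA5.

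RefSeq windows were matched for 33 of the 42 members, with 52 starts, and the windows of BPTF, CHD7, ACTL6A, SMARCC2, CHD5, ARID2, CHD6, SMARCC1 and BAZ1A were not analysed here. The members' windows held a median of 21.5 CG (quartiles 14.75 to 32.0), against 16 (5 to 25) over 22199 starts of 15843 protein-coding genes. The GC box GGGCGG, on either strand, was in 33 of 52 windows (63.5%), against 53.7% of all. It was present in the DPF1, PHF10 and SMARCA5 windows and not in that of SMARCA1. TATAAA, on either strand, was in 2 of 52 (3.85%), against 9.0% of all. TTCAGCACC, the first letters of the site of the neuronal-gene repressor REST, was in 0 of 52 windows and in 0.261% of all. None of these motifs contains another, and a match in these windows is a description only.

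Among the SWI/SNF ATPases, SMARCA4 (BRG1) had 7771.1, 7642.5 and 7553.0 normalized counts and SMARCA2 (BRM) had 3447.0, 3748.0 and 3619.9. SMARCA4 was the higher in every library, 2.19-fold per kb (1373 ± 19.7 against 627.2 ± 26.3). Each complex holds either ATPase, not both. Of the scaffold subunits, SMARCC1 had 8749.9, 8992.2 and 8722.1 normalized counts and SMARCC2 had 7064.0, 7099.2 and 7094.8, yet their levels per kb were nearly the same at 1388 ± 23.4 and 1392 ± 3.77. The log2 ratio per kb of SMARCC2 over SMARCC1 was 0.004 ± 0.02 and changed sign between libraries (exact permutation p = 0.75, adjusted p = 0.75), and per coding kb SMARCC1 was 1.40-fold higher. SMARCC2 had the lowest coefficient of variation among the members, 0.271%. Its reads did not differ between the libraries against counting noise (chi-square test of homogeneity, adjusted p = 0.944), so this rank is a description only. Part of the SMARCC2 exons, 719 bases, overlaps MYL6 on the opposite strand, a gene of 17908 normalized counts. The strand setting of the counting is not given in the sources used here.

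The SMARCD subunits link the complex to transcription factors. SMARCD2 was the highest member per transcript kb, with 2972 ± 172 normalized counts per kb from 7090.0, 7068.7 and 7813.6 normalized counts, highest in replicate 3. It exceeded SMARCD1 (3082.0, 3292.8 and 3006.6 normalized counts) 3.12-fold per kb, and SMARCD1 in turn exceeded SMARCD3 (856.4, 831.9 and 864.4 normalized counts), the form known from heart, muscle and neurons, 2.13-fold. None of these ranges overlapped per kb. Per kb of all exons joined the excess of SMARCD1 over SMARCD3 was 3.68-fold, and SMARCD1 stood at 0.514 of SMARCD2, against 0.321 per transcript kb. The core subunits SMARCB1, a tumor suppressor that contacts the nucleosome, and SMARCE1, an HMG-box protein, were close to each other at 874.7 ± 15.9 and 848.9 ± 20.7 normalized counts per kb. Exons of SMARCB1 share 2923 bases with DERL3, and those of SMARCD3 share 1321 bases with CHPF2, both on the opposite strand.

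The BCL7 proteins are small nucleosome-contacting subunits of every SWI/SNF form. Per transcript kb the order was BCL7C (2250 ± 60.4), BCL7B (1290 ± 108) and BCL7A (800.1 ± 21.5), with no overlap between libraries. Per coding kb this order did not hold: BCL7B was then 1.19-fold above BCL7C and BCL7A was above BCL7B by 0.42 on the log2 scale. BCL7B itself was uneven, with 1942.8, 2206.2 and 2284.6 normalized counts and its lowest value in replicate 1.

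Of the subunits that define a SWI/SNF form, the DNA-binding ARID1A of canonical BAF was highest per transcript kb, and DPF2 was slightly above it per coding kb (1844 against 1809). ARID1A had 12485.4, 13208.2 and 11509.1 normalized counts and 1443 ± 99.2 per kb. Its paralog ARID1B had 2401.0, 2569.2 and 2188.6. Both were highest in replicate 2 and lowest in replicate 3, and their log2 ratio per kb hardly moved (-2.64 ± 0.02), a 6.24-fold excess of ARID1A that was 5.40-fold per coding kb and 15-fold per kb of all exons joined. The PBAF subunits were at medium levels, with 651.0 ± 21.7 normalized counts per kb for the bromodomain protein PBRM1, 443.5 ± 30.3 for ARID2 and 398.6 ± 4.62 for BRD7. BRD7 shares 3593 exon bases with ADCY7 on the opposite strand. Of the non-canonical BAF subunits, the bromodomain protein BRD9 had 509.1 ± 9.32 normalized counts per kb and BICRA (GLTSCR1) had 136.0 ± 14.4, with 700.0, 758.2 and 861.3 normalized counts and its highest value in replicate 3.

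Levels of the CHD family covered a wide span, from 1265 ± 13.2 normalized counts per kb for CHD4 to 23.8 ± 3.11 for CHD5. CHD3, the other widely used NuRD ATPase, had 5681.3, 5925.4 and 5631.3 normalized counts and was 1.63-fold below CHD4 per kb. CHD2 and CHD1, which act on transcribed genes, had 415.5 ± 18.6 and 296.6 ± 8.99 normalized counts per kb. CHD2 was higher in every library, by 1.40-fold, but per kb of all exons joined CHD1 was the higher (log2 ratio -0.30). Of CHD6 to CHD9, CHD8, known as a regulator of the Wnt pathway, was highest at 398.0 ± 18.3 normalized counts per kb, CHD6 stood at 255.3 ± 24.4, and CHD7 and CHD9 were at 124.8 ± 6.40 and 123.3 ± 15.7 with overlapping ranges. CHD8 had 3518.9, 3381.6 and 3208.9 normalized counts and CHD9 had 1308.3, 1632.4 and 1330.5, so that their ratio per kb, 3.24-fold on average, was smallest in replicate 2. Per kb of all exons joined it was 1.88-fold.

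The ISWI partners give the ATPases their targets. BAZ1B (WSTF) had 9513.2, 10011.1 and 9644.0 normalized counts and 1590 ± 42.2 per kb, 2.05-fold above BAZ1A (ACF1), with 4339.8, 4481.7 and 4538.6 normalized counts. BAZ2A (TIP5), which silences ribosomal RNA genes, had 12500.4, 13206.6 and 12079.0, or 1409 ± 63.8 per kb. BPTF, the NURF subunit that binds methylated histone tails, was the lowest ISWI member at 238.9 ± 16.9 per kb.

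The members were then compared between the WT libraries. Against counting noise alone, 22 of 42 members differed between the 3 libraries (chi-square test of homogeneity of the reads, Benjamini-Hochberg adjusted p under 0.05), beside 41.9% of all genes tested. They were 11 of 27 SWI/SNF subunits, 7 of 9 CHD proteins and 4 of 6 ISWI genes. Deeply read genes are called more easily: of the 37 members with a mean of 1000 reads or more 19 differed, beside 49.4% of such genes. Leaving out replicate 1, 2 or 3 left 20, 12 or 13 members that differed. With edgeR's trended dispersion added to the counting noise, 0 of 42 members differed, beside 0.416% of all genes, and 5 had an unadjusted p under 0.05, beside 5.47% of all genes. These were CHD9 (unadjusted p = 0.00224 with edgeR's dispersion), CHD6 (0.00537), ARID1A (0.0296), ARID1B (0.0310) and BCL7B (0.0359).

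The differences were small. Over the members the median coefficient of variation was 3.76%, against 4.72% for expressed protein-coding genes. These medians were not matched for read depth: 37 of 42 members had a mean of 1000 reads or more, beside 7572 of 14646 tested genes. The coefficient passed 10% for DPF1 (24.2%), CHD5 (13.1%), CHD9 (12.7%), DPF3 (12.1%) and BICRA (10.6%). CHD9 was 1.25-fold higher in replicate 2 than in replicate 1, its lowest library. CHD6, with 2750.2, 2990.6 and 2468.9 normalized counts, was highest in replicate 2 and lowest in replicate 3, as were ARID1A and ARID1B. Among the neuronal paralogs, DPF1 (adjusted p = 0.0125, edgeR TMM sizes and chi-square) and CHD5 (adjusted p = 0.0167) were called by the chi-square test, while ACTL6B, SS18L1, SMARCA1 and DPF3 were not (adjusted p = 0.542, 0.318, 0.0619 and 0.865).

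Long remodeler transcripts moved together. Of the 13 members with a canonical transcript of 8 kb or more, 9 had their highest TMM-scaled level in replicate 2 and 11 their lowest in replicate 3, and none was highest in replicate 3. By the deposited normalized counts 10 were lowest in replicate 3, and CHD1, CHD9 and BPTF were lowest in replicate 1. Such counts were not made for other genes of this length, so they describe the members and do not set them apart. For the 13 long members the median log2 deviation from the gene's mean over the libraries was 0.01, 0.08 and -0.09 in replicates 1 to 3. For the 29 shorter members it was -0.02, 0.01 and 0.01. Spearman's rho of the deviation with transcript length was 0.14, 0.57 and -0.69 over the 42 members. These points share their libraries and are not independent, and rho carries no test here. The same signs held over protein-coding genes with 1000 reads or more in replicates 2 and 3 (0.48 and -0.35), with the other sign in replicate 1 (-0.14). After each library's trend with length and GC content was removed, rho over the members was 0.23, 0.10 and -0.43. Then 19 of 42 members differed between the libraries by the chi-square test, beside 36.4% of all genes, and PBRM1, CHD2, CHD3, CHD5, CHD7, BPTF and BAZ1B no longer passed while SMARCE1, ACTL6A, BCL7C and CHD4 newly did.

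**Figure D3:**
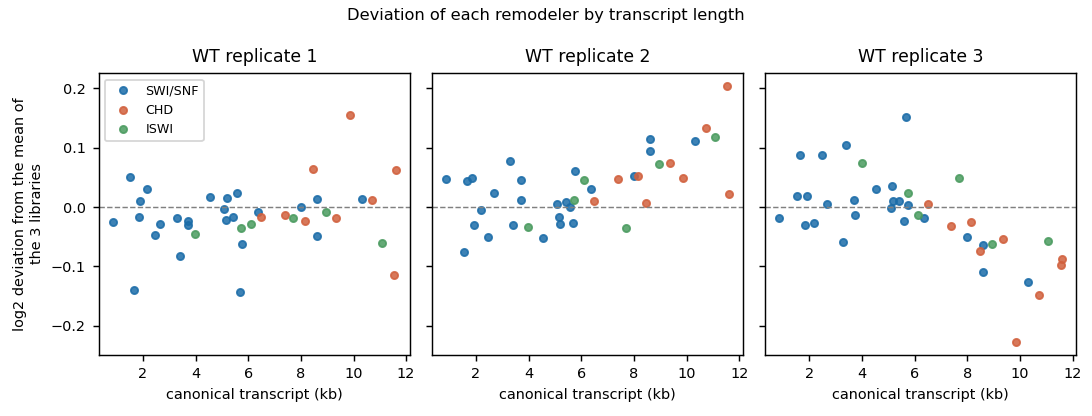
Log2 deviation of the members from their own mean over the 3 libraries (vertical axis) against canonical transcript length in kb (horizontal axis), with a panel for each WT library and colors for the families; DPF1 and DPF3, with few reads, are left out of the plot. Most transcripts of 8 kb or more lie above 0 in replicate 2 and below 0 in replicate 3.

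In a list of genes for partners and related remodelers, 32 of 32 were expressed at 1 CPM or more, against 63.8% of the protein-coding genes with a row. CECR2 passed only narrowly, with 1.40 CPM from 54 reads in replicate 3. By the chi-square test 18 of the 32 differed between libraries, beside 41.9% of all genes tested. With edgeR's trended dispersion 0 differed, beside 0.416%, and 3 had an unadjusted p under 0.05, beside 5.47%. The NuRD partners of CHD3, CHD4 and CHD5 counted 12 genes, of which 6 differed by chi-square, the further ISWI partners 5 (3), the further SWI/SNF subunits 2 (1), and the INO80 and SWR1 group 13 (8). Highest per kb were beta-actin ACTB, also a SWI/SNF subunit (46895 ± 2155 normalized counts per kb), the NuRD deacetylase HDAC1 (5292 ± 162) and the INO80 helicase RUVBL2 (3744 ± 218). The lowest were the ISWI partners CECR2 (6.18 ± 1.83), known from the nervous system, and RSF1 (78.9 ± 12), and the NuRD subunit MTA3 (117.4 ± 9.94). Per coding kb HDAC1 (7751) and RUVBL2 (4165) were no longer among the 3 highest, and MTA3 (358.9) was not among the 3 lowest. CECR2 had 77.4, 57.5 and 42.5 normalized counts and thus, like DPF1 and CHD5, was low in every library.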

How the data were processed

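Total RNA of 22Rv1 WT cells (3 libraries) was sequenced as described by the submitters. Per the submitters' notes the authors aligned to hg19 (GRCh37) by HISAT2, used HTSeq for gene counting and DESeq2 for scaling; the GENCODE release, strandedness and the handling of multi-mapping reads are not given in the sources used here. The deposited signal is a normalized count per gene, namely reads divided by a size factor (1.27, 1.18 and 1.27) and rounded to 1 decimal. Dividing by the step of each library gave whole reads for 100% of values above 0, to within their rounding (0.05, plus 2e-06 of the value), and count tests used these reads. Adjacent rows identical in all 3 libraries were merged (1976 rows). Symbols matched 86.3% of the identifiers.

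Levels per kb used 1 canonical transcript a gene. Differences between libraries were tested by chi-square against TMM sizes (edgeR 4.0.16, R 4.3.3, scipy 1.17.1) where the mean was 10 reads or more. Adjustment was by Benjamini-Hochberg, with a threshold of 0.05. The test was checked on simulated data with counting noise (Poisson) only. Of 200 genes changed 2-fold in 1 library 190 were recovered, with 15 false calls among 14646 genes. The simulation held no further spread between libraries, so its false calls do not carry over to these data. Paralog ratios were tested by exact sign flips. Library sizes came from the recovered reads, so intervals cover counting error only. Alternatives were DESeq2 1.42.0 size factors, library totals, other minima and lengths, trended dispersion, removal of length and GC trends, unmerged rows and leaving out each library. No member had a copy covering 50% of its transcript at 98% identity (minimap2 2.31), and 15 members share exon bases with another counted gene (bedtools 2.31.1). The largest copies were PHF10P1, covering 45.2% of PHF10 at 95.3% identity, and BRD7P2, covering 36.1% of BRD7 at 97.6%.

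The members, pairs, partner and marker lists were chosen with earlier results of these data known. All members are named; of the partners, the 3 highest and 3 lowest per kb. Protein identity between paralogs was planned and not run, since protein sequences were not used here. Promoter windows come from RefSeq.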

Additional observations from a re-analysis of the deposited data

How the results depend on the processing

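Of 119 recomputed paralog ratios, 109 kept their direction and 10 reversed; 13 of 17 pairs, the 6 neuronal pairs among them, had no reversal. The log2 ratio of SMARCC2 over SMARCC1 was -0.58 with the length of all exons joined, -0.49 with coding length, -0.32 with no length scaling and -0.005 without replicate 3 (-0.005 to 0.017 over the libraries left out). BCL7A over BCL7B was 0.42 with coding length and 0.48 with no scaling. BCL7C over BCL7B was -0.36, -0.25 and -0.15 with all exons, coding length and no scaling, and CHD2 over CHD1 was -0.30 with all exons. Coding length was chosen as an alternative after seeing the data.

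With all exons, coding length and no scaling, the share of ACTL6B was 12.7%, 8.68% and 8.62%, of SS18L1 34.3%, 31.6% and 30.4%, of CHD5 1.95%, 1.65% and 1.65%, and of SMARCA1 26.8%, 16.2% and 16.4%; DPF1 with DPF3 took 8.61% with all exons and 9.60% with coding length. SS18L1 was above SMARCA1 in each of these. With coding length DPF1 with DPF3 was above ACTL6B in the mean but not in every library, with DPF2 left out of the sum. These settings change the length alone. The count of members that differed between libraries was 0 with trended dispersion and 12 to 20 with a library left out, a setting that has fewer samples, and 19 to 24 under the others; over all genes it was 61 with trended dispersion, 5334 without the length and GC trend and 3332 to 3950 with a library left out. The count of expressed members was 40 at 5 CPM and 41 otherwise. No paired analysis between conditions was possible because the labels give a single group. The paralog ratios were paired within each library. Low depth limits DPF3, with at most 14 reads.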
